A study of Drosophila melanogaster with 7 samples.

Results

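The transcription factor genes *ey*, *toy*, *ci*, *pan*, *sv*, *zfh2*, *dati* and *Sox102F* lie on chromosome 4 of *Drosophila melanogaster*, and their transcripts were compared between whole first-instar larvae of a pof mutant and wild-type larvae. The probe sets were chosen by gene symbol, current or older, in the annotation of the array platform, with array controls left out. This gave 10 probe sets for 7 of the 8 genes, out of 13966 probe sets that cover 10844 named genes. *dati* had 3 probe sets, *zfh2* had 2, and *ey*, *toy*, *ci*, *sv* and *Sox102F* had 1 each; *pan* was not analysed here.

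The pof mutant group had 4 arrays and the wild-type group 3. Each array was a single-colour Affymetrix array that took labelled polyA RNA of 400 pooled whole larvae, both sexes together. The submitters call the pools biological replicates; the sources used here name neither the allele nor the stocks. In such pools, differences between single larvae cannot be seen. All values are log2 expression as RMA gives it, so an array can be set against another array for the same probe set, but the levels of different probe sets have no common scale.

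Chromosome 4 is a very short autosome with much heterochromatin between and around its active genes. The RNA-binding protein Pof coats it and is known to raise the output of many of its genes. Several of the regulators it carries are master genes of development: *ey* and *toy* encode Pax6 proteins that start eye and mushroom body development, *sv* encodes a Pax2/5/8 protein of cone cells and bristles, *ci* encodes the Gli-type zinc finger factor at the end of the Hedgehog pathway, and *pan* the TCF factor of the Wingless pathway. *zfh2* encodes a large protein with zinc fingers and homeodomains, *dati* a zinc finger protein needed in the nervous system for female receptivity, and *Sox102F* an HMG-box protein of the SoxD group.

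*Pof* itself (probe set 141415_at, on 2R) had 3.43, 3.43, 3.50 and 3.41 in the mutant arrays, against 3.90, 3.77 and 3.64 in the wild-type arrays. All mutant arrays lay below all wild-type arrays, as on 2.79% of all probe sets. The log2 difference of -0.33 ± 0.07 (SE) fell short of the threshold when adjusted over the whole array (limma, adjusted p = 0.323). The signal was low in both groups, with every value within the range of the control probe sets for mouse and yeast sequences (3.26 to 5.91). The arrays also differed in evenness, the signal at the 5' end of a transcript relative to its 3' end. Averaged over the controls for actin, eIF-4a and GAPDH, the 3' minus 5' signal was 3.22, 3.95, 2.12 and 2.19 (log2) on the mutant arrays and 4.32, 2.02 and 1.92 on the wild-type arrays, so wild type replicate 1 was the least even of the 7.

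Of the 10 transcription factor probe sets, none passed the test between mutant and wild type. The limma fit ran over all 13966 probe sets with Benjamini-Hochberg adjustment and a threshold of adjusted p under 0.05, which 9 probe sets (0.0644%) passed. No member had an adjusted p below 0.963, and none had an unadjusted p under 0.05, where 5.43% of all probe sets did. On all 10 the values of the groups overlapped, while on 6.0% of all probe sets they did not. The 2 Pax6 genes and 1 of 3 *dati* probe sets gave clear signal, which here means only signal above the controls. *ey* (143543_at), *toy* (152583_at) and *dati* 150978_at lay above the 8 control probe sets for mouse and yeast sequences on all 7 arrays. The remaining 7 probe sets lay within the range of those controls (3.26 to 5.91) on every array. In whole animals, fewer cells of a type and less RNA per cell cannot be told apart.

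**Figure D1:**
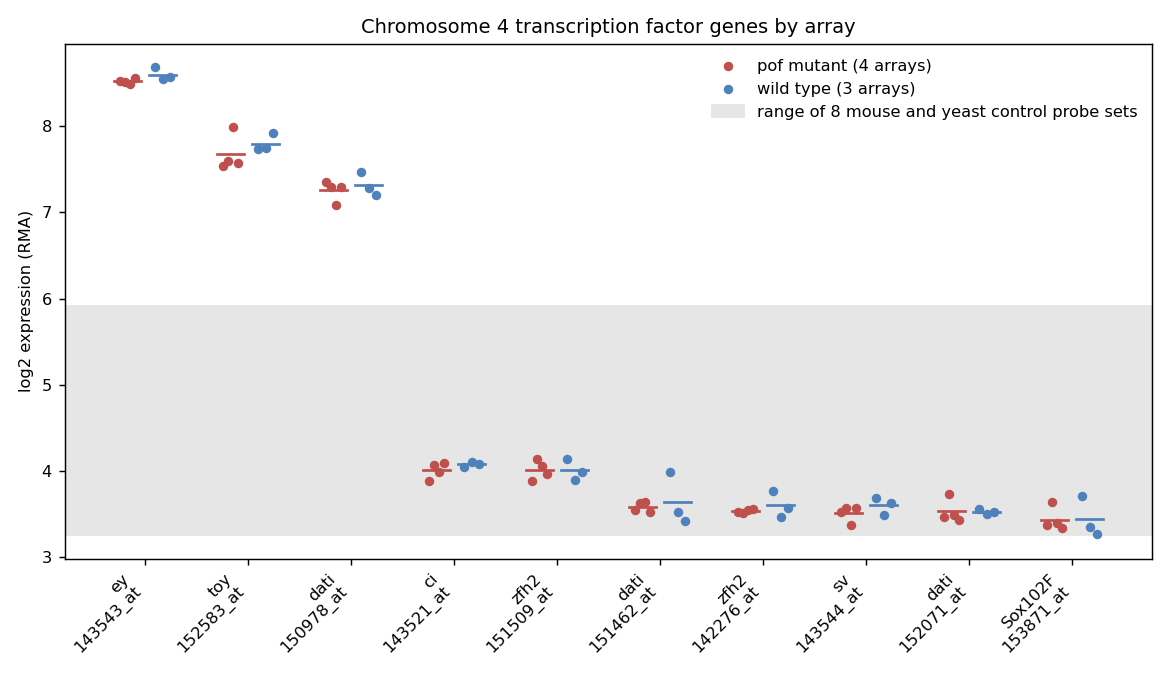
Log2 expression (RMA) of the 10 probe sets on each array, with pof mutant arrays left of wild-type arrays, bars at the group means and the range of the 8 mouse and yeast control probe sets shaded. *ey*, *toy* and 1 probe set of *dati* lie above the controls, the other 7 lie within their range, and the groups overlap in every column.

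*ey* had the narrowest spread of the 3. Its log2 expression was 8.53, 8.51, 8.49 and 8.56 in the pof mutant, against 8.68, 8.54 and 8.56 in wild type. The wild-type replicate 1 value was the highest, and the other 2 wild-type arrays lay within or just above the upper end of the mutant values. The means were 8.52 ± 0.03 in the 4 mutant pools and 8.60 ± 0.07 in the 3 wild-type pools (mean ± SD), so the mutant minus wild-type value was -0.07 ± 0.06 on the log2 scale (SE; limma, adjusted p = 0.963). This is 0.949 of the wild-type level, with a 95% interval of 0.860 to 1.05, so a fall of *ey* signal below 0.860 of wild type lay outside the interval of this fit. Without wild type replicate 1 the difference was -0.0324.

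*toy*, which acts upstream of *ey* in the eye, had a wider spread. It had 7.54, 7.60, 7.99 and 7.57 in the mutant, against 7.73, 7.75 and 7.91 in wild type. Mutant replicates 1, 2 and 4 lay below all wild-type arrays and mutant replicate 3 above all of them. The means were 7.67 ± 0.21 in the 4 mutant pools and 7.80 ± 0.10 in the 3 wild-type pools (mean ± SD), a difference of -0.12 ± 0.12 (SE; limma, adjusted p = 0.963), or 0.918-fold with a 95% interval of 0.757 to 1.11. Without mutant replicate 3 the difference was -0.23 and it still did not pass (limma, adjusted p = 1.0).

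The probe sets of *dati* differed in signal. Probe set 150978_at had 7.35, 7.30, 7.08 and 7.29 in the mutant, against 7.46, 7.28 and 7.20 in wild type, with the highest value again on wild type replicate 1. The difference was -0.06 ± 0.09 (SE; limma, adjusted p = 0.968), or 0.960-fold with a 95% interval of 0.826 to 1.12. Without wild type replicate 1 it turned to 0.02.

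The other *dati* probe sets were within the range of the controls. Probe set 151462_at had 3.54, 3.63, 3.64 and 3.52 in the mutant, against 3.99, 3.52 and 3.42 in wild type, and 152071_at had 3.46, 3.74, 3.49 and 3.43 in the mutant, against 3.55, 3.50 and 3.52 in wild type. Their differences were -0.06 ± 0.13 and 0.0052 ± 0.08 (SE). In each of these one array stood high, wild type replicate 1 on 151462_at and mutant replicate 2 on 152071_at, and these are the 2 least even arrays. Where the probes of the 3 probe sets lie in the transcripts of *dati* is not known from the files.

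The remaining genes gave low signal in both groups, where RMA compresses differences and true changes are understated. For *ci* (143521_at) the values were 3.89, 4.07, 3.99 and 4.10 in the mutant, against 4.04, 4.10 and 4.08 in wild type, a difference of -0.06 ± 0.07 (SE). Mutant replicate 1 was the lowest of the 7 and the other mutant arrays lay among or close to the wild-type arrays. For *sv* (143544_at) they were 3.52, 3.57, 3.37 and 3.57 in the mutant, against 3.68, 3.49 and 3.63 in wild type, a difference of -0.09 ± 0.08 (SE). Mutant replicate 3 was lowest and wild type replicate 1 highest.

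*zfh2* had no clear signal with either probe set. Probe set 142276_at had 3.52, 3.51, 3.54 and 3.56 in the mutant, against 3.77, 3.46 and 3.58 in wild type, and 151509_at had 3.89, 4.14, 4.06 and 3.96 in the mutant, against 4.14, 3.89 and 3.99 in wild type. The differences were -0.07 ± 0.08 and 0.0060 ± 0.09 (SE), with opposite signs. *Sox102F* (153871_at) had 3.37, 3.64, 3.40 and 3.34 in the mutant, against 3.71, 3.35 and 3.27 in wild type, a difference of -0.0056 ± 0.12 (SE). Its highest values in each group were on the 2 least even arrays, mutant replicate 2 and wild type replicate 1. No adjusted p among these 4 genes was below 0.963 (limma).

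**Figure D2:**
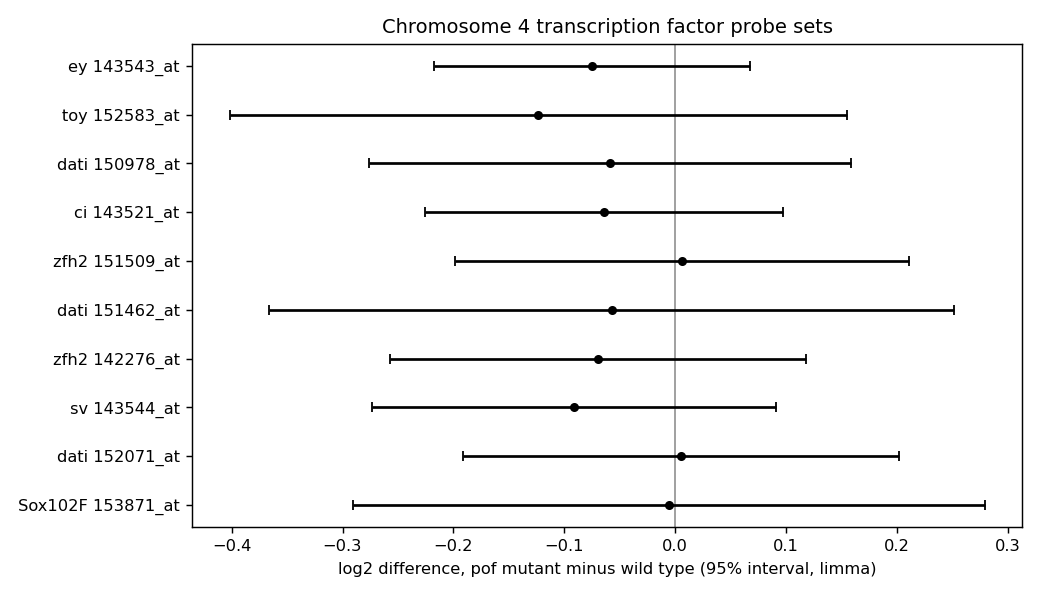
Log2 difference, pof mutant minus wild type, of each of the 10 probe sets with its 95% interval from limma, in order of mean level from the top. Every interval includes 0; that of *ey* is the narrowest (-0.22 to 0.07) and that of *dati* 151462_at the widest (-0.37 to 0.25).

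Part of the larval tissue markers gave signal above the mouse and yeast controls on average, as did 7423 of all 13966 probe sets. In the counts below, the neuron and muscle shares were close to that one. The ovary and adult share was higher than both. Above the controls on average were 8 of 15 neuron, 7 of 12 muscle, 6 of 7 midgut, 7 of 9 fat body, 3 of 9 haemocyte and 5 of 5 epidermis and trachea probe sets, and 5 of 7 ovary and adult and 2 of 6 testis ones. Single markers on either side of that range, picked after the values were seen, were the pan-neuronal gene *elav* (154632_at), within it at 3.75 ± 0.21 in the 4 mutant pools and 3.78 ± 0.63 in the 3 wild-type pools (mean ± SD), and the eggshell gene *Cp36* (143111_at), above it at 8.27 ± 0.07 in the mutant and 8.33 ± 0.25 in wild type. Signal within the control range was therefore not read as absence of *ci*, *sv*, *zfh2* or *Sox102F* transcripts. Nor was signal above it, which *Cp36* also had, read as proof of *ey*, *toy* or *dati* transcripts. The median over the neuron probe sets, the tissue where *ey*, *toy* and *dati* are best known, was 5.87 to 6.14 on the mutant arrays and 5.67 to 6.18 on the wild-type arrays. The midgut median was 9.83 to 11.5 on the mutant arrays and 8.95 to 10.3 on the wild-type arrays, and no marker passed the threshold. The groups did not overlap on 4 of 7 midgut, 3 of 9 fat body and 3 of 5 epidermis and trachea probe sets, against 6.0% of all probe sets. They overlapped on all probe sets of the other marker lists. The marker lists were chosen with earlier results of these data known, so no conclusion is drawn from these counts. In each of the lists without overlap, some such probe sets were higher and some lower in the mutant. Of the 7 midgut probe sets 6 had a higher mean in the mutant, and the median difference of the 7 was 0.53. The protease gene *betaTry* (143602_at) had a difference of 1.37 ± 0.22 (SE, limma adjusted p = 0.156). The only lower one, the protease gene *Jon25Biii* (145795_at), had -0.58 ± 0.13 (SE, limma adjusted p = 0.323). The part of tissue make-up in the members' values was not tested.

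The direction of the differences was mostly downward, as it was for the rest of chromosome 4. Of the 10 probe sets 8 had a lower mean in the mutant, and their median difference was -0.06. Of the 62 other probe sets on chromosome 4, 45 (72.6%) had a lower mean, with a median of -0.06, and of all probe sets 58.0% had one, with a median of -0.02. Among probe sets above the mouse and yeast controls, all 3 members were lower, with a median of -0.075, as were 13 of 20 others on chromosome 4 (65.0%), with a median of -0.0075, and 51.7% of all, with a median of -0.0051. The members' own range, from -0.12 to 0.0060, lay inside that of the other chromosome 4 probe sets, from -0.40 to 0.45. These counts are descriptions and carry no test.

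**Figure D3:**
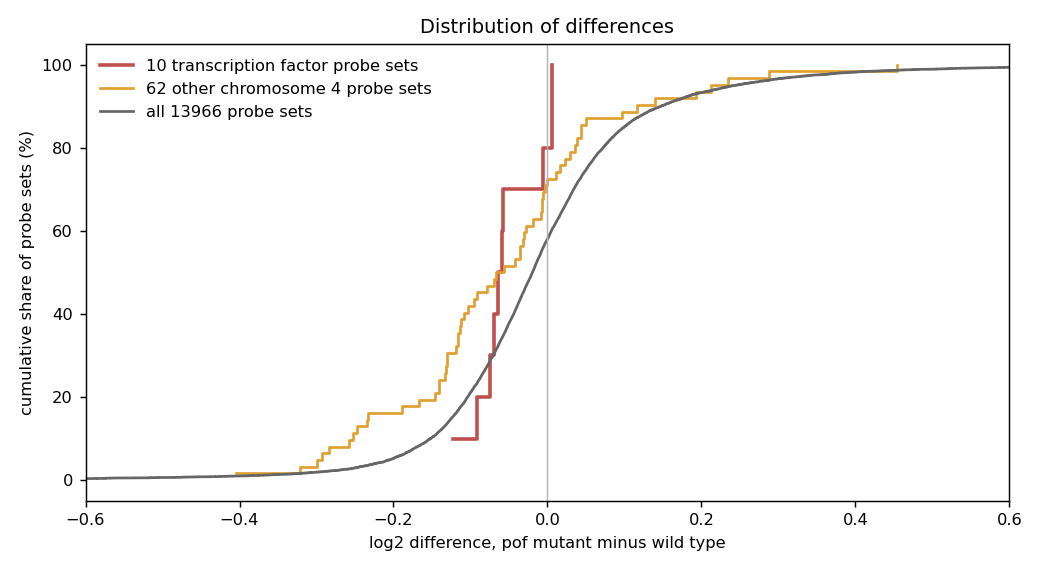
Cumulative share of probe sets against the log2 difference, pof mutant minus wild type, for the 10 transcription factor probe sets, the 62 other chromosome 4 probe sets and all 13966. The median is -0.06 for both chromosome 4 sets and -0.02 for all probe sets; the horizontal axis is limited to the central range.

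The downward count depended on 1 array, for the members and for all probe sets together. The other chromosome 4 probe sets were not counted with an array left out, so theirs may depend on it too. On wild type replicate 1, all 10 probe sets were above their own mean over the 7 arrays, by a median of 0.13, as were 58.6% of all probe sets. On mutant replicate 1 only 1 of 10 was, with a median deviation of -0.07, against 37.9% of all. On the other arrays between 3 and 7 of the 10 were above it. Without wild type replicate 1, 4 of the 10 had a lower mean in the mutant and the median difference was 0.01, while 47.4% of all probe sets were lower with a median of 0.0060. With the 3' minus 5' difference as a covariate, all 10 were lower with a median of -0.07, against 58.3% of all. Without the 3 least even arrays, a choice made after the values were seen that leaves 2 arrays a group, 6 were lower with a median of -0.04, against 51.6% of all. None of the 10 passed the threshold in any of these fits.

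**Figure D4:**
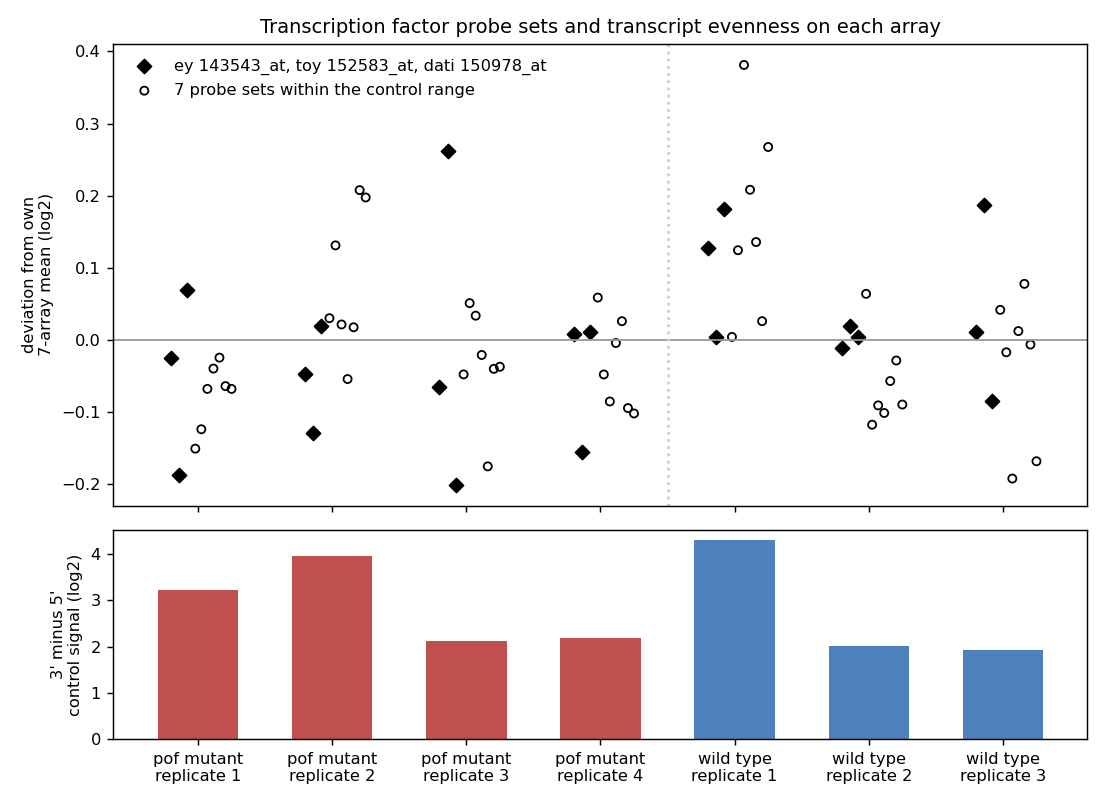
Top, deviation of each of the 10 probe sets from its own mean over 7 arrays (log2), for the 3 probe sets above the controls (diamonds) and the 7 within their range (circles). Bottom, how far signal at the 3' end of the control transcripts exceeded that at the 5' end (log2); pof mutant arrays are left of wild-type arrays. All 10 points lie above 0 on wild type replicate 1, which has the highest bar at 4.32.

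Single probe sets ran with transcript evenness to different degrees, and none of the 10 relations passed adjustment. Pearson r was above 0 for 8 probe sets and below 0 for *toy* and *ci*, but over the 5 arrays without wild type replicate 1 and mutant replicate 2 it was above 0 for 3 and below 0 for 7. The largest was that of *Sox102F* with Pearson r = 0.918 over 7 arrays (exact permutation p = 0.00754, or 0.0694 adjusted over the 10) and Spearman rho = 0.82 (exact permutation p = 0.0341, or 0.16 adjusted). It was 0.40 over the 5, and so rests on the 2 arrays left out. For *dati* 151462_at Pearson r was 0.761 (exact permutation p = 0.0139, or 0.0694 adjusted) and Spearman rho 0.79 (exact permutation p = 0.048, or 0.16 adjusted), and r was 0.21 without those 2 arrays. *dati* 150978_at had r = 0.735 (exact permutation p = 0.0585, or 0.195 adjusted) and rho = 0.86 (exact permutation p = 0.0238, or 0.16 adjusted), and r was 0.58 over the 5. *toy* had r = -0.465 (exact permutation p = 0.27, or 0.338 adjusted) and rho = -0.57 (exact permutation p = 0.2, or 0.5 adjusted), and r was -0.66 over the 5. For *ci* r was -0.241 (exact permutation p = 0.65, or 0.65 adjusted) and rho -0.46 (exact permutation p = 0.302, or 0.589 adjusted), and r was -0.87 over the 5. *zfh2* 151509_at had r = 0.613 (exact permutation p = 0.138, or 0.276 adjusted) and rho = 0.43 (exact permutation p = 0.354, or 0.589 adjusted), and r turned to -0.52 over the 5.

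The array patterns of the 3 genes with clear signal were alike for only 1 pair. Over the 7 arrays Pearson r was -0.08 between *ey* and *toy*, 0.72 between *ey* and *dati* 150978_at, and -0.68 between *toy* and *dati* 150978_at. The 2 probe sets of *zfh2* had r = 0.55, and the 3 of *dati* had r between 0.16 and 0.55. With 7 arrays such values are descriptions only.

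Among named probe sets with a mean level of at least 6, those most like each of these genes over the 7 arrays were as follows. For *ey* they were *Atf3* (r = 0.986), a bZIP transcription factor, and *S-Lap7* (r = 0.968). For *toy* they were *ksr* (r = 0.911), a scaffold of the MAP kinase pathway, and *danr* (r = 0.906), a nuclear protein that takes part in eye specification. For *dati* they were *CG11843* (r = 0.991) and *E(spl)m5-HLH* (r = 0.987), a Notch target. An r of at least 0.9 was reached by 73 of 6342 probe sets for *ey*, by 2 for *toy* and by 92 for *dati*. The *toy* profile thus had fewer close matches than the profiles of *ey* and *dati*. The named matches are the highest of 6342 values over only 7 arrays. They were not tested and are not read as links between the genes. None of the 6 named matches passed the threshold between mutant and wild type (adjusted p of at least 0.963).

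The neighbours of the factors along chromosome 4 did not pass the threshold either. In the Release 6 gene order, the nearest genes measured here on each side of the 7 genes are 14 in number, of which 9 had a lower and 5 a higher mean in the mutant; their median difference was -0.02. Each gene stands there with its probe set of highest mean; only *bt* and *MED26* had another. Next to *ey*, the TGF-beta family ligand gene *myo* had a difference of -0.25 ± 0.11 (SE) and the muscle gene *bt* one of 0.12 ± 0.20, with 0.04 ± 0.45 on its other probe set (150988_at). *MED26*, a Mediator subunit gene beside *Sox102F*, had 0.10 ± 0.23, and -0.30 ± 0.24 on its other probe set (150989_at). Next to *toy*, *fuss* had -0.13 ± 0.07 and *Mpv17* 0.23 ± 0.11, in opposite directions. *Asator*, a kinase gene beside *zfh2*, had the lowest p of the 14 with -0.26 ± 0.09, and it did not pass (limma, adjusted p = 0.793).

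The pathway in which *ci* acts gave no call. Hedgehog signals through the receptor gene *ptc* and the transducer *smo* to decide whether Ci activates or represses its targets. Of 22 listed Hedgehog pathway genes 18 were measured with 22 probe sets, and none passed the threshold or had an unadjusted p under 0.05; 11 were higher and 11 lower, with a median of 0.0033. The smallest p belonged to *dlp*, a glypican, whose 2 probe sets had differences of 0.14 ± 0.09 and -0.05 ± 0.13 (SE), *disp*, which releases the ligand, at -0.13 ± 0.09, the Ci-binding kinesin *cos* at 0.08 ± 0.06 and *shf* at 0.08 ± 0.06. The ligand, receptor and transducer were picked here for their roles after the values were seen. *ptc*, itself a target of Ci, had 6.66 ± 0.03 in the 4 mutant pools and 6.64 ± 0.04 in the 3 wild-type pools (mean ± SD). *hh* (3.54 ± 0.02 in the mutant and 3.55 ± 0.12 in wild type) and *smo* (4.21 ± 0.16 in the mutant and 4.37 ± 0.27 in wild type) were within the control range. Both probe sets of *dlp* were also within it on average.

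Of 29 genes listed for the Wingless pathway, which ends in the TCF factor, 13 were measured with 16 probe sets. Among those without a probe set here were the ligand gene *wg*, the receptor genes *fz*, *fz2* and *arr*, and *dsh*, *arm*, *lgs* and *pygo*. Much of the core of the pathway was therefore not covered. None passed the threshold or had an unadjusted p under 0.05, and 8 were higher and 8 lower, with a median of -0.0013. *hyx*, a cofactor of the pathway's transcription complex, had 0.19 ± 0.12 (SE), the scaffold *Axn* -0.13 ± 0.09 and the ligand transporter *wls* -0.08 ± 0.09. The list and its counts also held the Hox gene *Dfd*, which is not a component of the signalling pathway, at -0.10 ± 0.12. On average *hyx*, *Axn*, *wls* and *Dfd* all lay within the control range, where signal is low.

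Partners and targets of the Pax6 genes in eye formation did not pass the threshold. Of 14 listed retinal determination genes 12 were measured, 4 higher and 8 lower, with a median of -0.04. Over all probe sets 58.0% were lower, with a median of -0.02. *dac*, a nuclear factor that works with *eya* and *so* downstream of *ey*, had all mutant arrays below all wild-type arrays, at 6.39 ± 0.07 in the 4 mutant pools and 6.58 ± 0.12 in the 3 wild-type pools (mean ± SD). Its difference was -0.19 ± 0.08 (SE; limma, adjusted p = 0.883), and all mutant arrays lay below all wild-type ones on 2.79% of all probe sets. The homeobox gene *Optix* had -0.12 ± 0.08, the zinc finger gene *gl* -0.17 ± 0.11 and *tio* -0.09 ± 0.07. Of these, *gl* lay within the control range on average.

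Relatives of the factors elsewhere in the genome gave no calls. Of 7 measured Pax and related homeobox genes 5 were lower and 2 higher, with *Poxn* at -0.11 ± 0.08 (SE), *gsb-n* at -0.11 ± 0.10, *Pph13* at -0.07 ± 0.09 and *Poxm* at 0.05 ± 0.07. Among 14 probe sets of 8 HMG-box and Sox genes, 8 were lower and 6 higher. The 2 probe sets of *SoxN*, a neural Sox gene, had -0.09 ± 0.07 and 0.26 ± 0.14, those of *Sox15* -0.08 ± 0.08, -0.11 ± 0.12 and -0.09 ± 0.23, those of *Sox100B* -0.10 ± 0.11 and -0.06 ± 0.06, and those of *Sox21b* 0.04 ± 0.08 and 0.0050 ± 0.10. None of these passed the threshold or had an unadjusted p under 0.05. Several of the probe sets named, among them that of *SoxN* at 0.26, lay within the control range on average. Over all probe sets 58.0% had a lower mean in the mutant.

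Other zinc finger and homeobox regulators gave 10 higher and 10 lower probe sets of 20, with 1 in each direction at an unadjusted p under 0.05 and none past the threshold. Both were of *lola*, a gene with many isoforms, and both lay within the control range on average. Probe set 151645_at had 0.24 ± 0.07 (SE; limma, adjusted p = 0.651) and 146954_at -0.18 ± 0.07 (adjusted p = 0.823), and its other 6 probe sets lay between -0.05 and 0.14. *vvl*, a POU factor, had -0.19 ± 0.09, *Zif* 0.12 ± 0.13, and the 3 probe sets of *pdm2* 0.10 ± 0.08, 0.0013 ± 0.09 and -0.03 ± 0.08. Of 12 probe sets for cone cell and bristle fate, where *sv* acts, 9 were lower and 3 higher and none passed, while 58.0% of all probe sets were lower. *svp*, a nuclear receptor, had -0.14 ± 0.07 and -0.07 ± 0.08 with its 2 probe sets, the homeobox gene *pros* -0.11 ± 0.07, *B-H2* -0.15 ± 0.13 and *shn* 0.15 ± 0.14.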

How the data were processed

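The deposited values are on a log2 scale; per the submitters' processing notes the authors used RMA, with no version named. RMA corrects background, quantile normalizes arrays and summarises probes into probe sets, and it compresses low signals. No further normalization was applied, and no 2 arrays were identical (pairwise correlations 0.970 to 0.995). Probe sets were named through the platform's annotation table, with symbols and chromosomes updated by gene identifier from RefSeq (Release 6). Of 14010 probe sets, 44 controls were left out and 13966 tested, of which 12443 named 1 gene.

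A limma model (limma 3.58.1, lmFit then eBayes, run in R 4.3.3) gave mutant minus wild type without covariates, with p-values adjusted by Benjamini and Hochberg's method over all 13966 and called under 0.05. Standard errors and 95% intervals are limma's moderated ones. Exact permutation p-values are two-sided over all pairings of the 7 arrays. The limma and permutation steps were tested on simulated data with independent noise. Such data lack the shifts shared by many probe sets of an array that these data show. The median log2 expression was 6.01 to 6.06 on every array; the number of arrays limits the precision.

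Members and lists were chosen with earlier results of these data known. All member probe sets are named, with up to 4 genes of smallest p from each regulator list and, for members with a mean of at least 6, the 2 genes most like them; other genes are named for position or role after their values were seen. The lists covered the Hedgehog and Wingless pathways, retinal determination, Pax, HMG-box and Sox, zinc finger and homeobox, and cone cell and bristle genes, and markers of 6 larval tissues, ovary and testis. The comparison with mouse and yeast controls was chosen after seeing the data. Alternatives tried were centring on genes outside chromosome 4, another quantile normalization, a level limit of 6, eBayes with trend and robust, array weights (gene by gene, since REML weights did not converge), the replicate number as a block, the 3' minus 5' covariate, probe set suffixes, and leaving out each array. No sequences were used. Figures were drawn with matplotlib 3.10.9.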

Additional observations from a re-analysis of the deposited data

Results flagged for a closer look

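*toy* (152583_at) was 7.99 on pof mutant replicate 3, against 7.54 to 7.60 on the other 3 mutant arrays, a gap beyond Dixon's 95% limit for 4 values. It was the only case among the 10 transcription factor probe sets, and chance gives such a case in about 1 of 20 groups. The group of 3 wild-type arrays was not examined in this way. On mutant replicate 3 *dati* 150978_at had its lowest value of the 7 arrays (7.08) and *ey* its lowest (8.49).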

How the results depend on the processing

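None of the 10 transcription factor probe sets passed limma's threshold under any of the alternatives run, over 153 values in all, and the smallest adjusted p was 0.516. *ey*, *toy*, *ci* and *sv* stayed below 0 in each of them, and the median difference of the 10 stayed below 0 except without wild type replicate 1 (-0.0879 to 0.0149 over the arrays left out). The number lower in the mutant was 4 to 10 over the arrays left out, and 3 of the 3 probe sets kept by a level limit of 6. Signs turned in some alternatives for the probe sets of *zfh2*, *dati* and *Sox102F*, and the cause was not tested. With array weights, set gene by gene because the usual REML weights did not converge, *Sox102F* was 0.0586, *zfh2* 142276_at 0.0298, *dati* 151462_at 0.0565 and *dati* 152071_at -0.0105. *Sox102F* was also 0.0308 after another quantile normalization and 0.0075 after centring. With the 3' minus 5' covariate *zfh2* 151509_at was -0.0014 and *dati* 152071_at -0.0017. Without the 3 least even arrays, chosen after the data were seen, *Sox102F* was 0.0593, *zfh2* 142276_at 0.0319, *dati* 151462_at 0.12 and *dati* 152071_at -0.0498. Over the arrays left out in turn the ranges were -0.10 to -0.0324 for *ey*, -0.23 to -0.0649 for *toy*, -0.0927 to -0.0229 for *ci*, -0.15 to -0.0458 for *sv*, -0.0913 to 0.13 for *Sox102F*, -0.14 to 0.0147 for *zfh2* 142276_at, -0.051 to 0.0699 for *zfh2* 151509_at, -0.12 to 0.0151 for *dati* 150978_at, -0.17 to 0.12 for *dati* 151462_at and -0.0632 to 0.0375 for *dati* 152071_at. Relations with evenness past adjustment numbered 0 to 2 over the arrays left out, and 2 only without pof mutant replicate 3.

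Over all probe sets the number past the threshold, 9, was 76 with array weights, 86 with the covariate and 0 without the 3 least even arrays. It was 0 to 34 over the arrays left out, with 0 without pof mutant replicate 1 and 34 without wild type replicate 1. Whether same-numbered arrays were paired was not settled by the values, which were mixed. Their deviations correlated at 0.25, -0.57 and 0.56, and 3 of 6 arrays correlated best with their own number. With the replicate block, which cannot use pof mutant replicate 4, 2 probe sets passed, none of them a transcription factor of chromosome 4, and *Sox102F* turned to 0.0276. The 7 probe sets within the range of the mouse and yeast controls are limited by signal over background.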
